A study of Mus musculus with 7 samples.

Results

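The genes described are 10 members of the Wnt signalling pathway, picked by symbol out of the 24353 rows of a table of endometrial expression. The table lists them in capitals, as WNT4, WNT5A, WNT7A, WNT7B, WNT11, LGR4, LGR5, AXIN2, LEF1 and RNF43. They are the ligands Wnt4, Wnt5a, Wnt7a, Wnt7b and Wnt11, the R-spondin receptors Lgr4 and Lgr5, the ubiquitin ligase Rnf43, and Axin2 and Lef1. All 10 were found and all 10 passed the filter on low values (an FPKM of 1 in any library). Lgr5 and Wnt11 passed it only through E2 and ED, so for them a difference between a tamoxifen group and E2 or ED was built in. Lef1 passed it only through the second E2 library, so its differences between E2 and every other group were built in. In those comparisons these 3 genes are described without a test. RNA came from cells labelled as endometrial epithelium of C57BL/6 female mice, collected with the uterine horns. Every mouse had been oophorectomized at 6 to 7 weeks of age, so all groups lacked the ovaries as a source of hormones. Each treatment lasted 28 days. Tam+Alp mice received tamoxifen at 0.5 mg per day, given under the skin in peanut oil, together with oral alpelisib at 30 mg/kg per day (2 libraries). Tam mice received the same tamoxifen alone (2 libraries). E2 mice carried an estradiol pellet of 0.01 mg made for 60 days of release (2 libraries), and ED mice received vehicle (1 library). Tamoxifen is a selective estrogen receptor modulator, partly agonistic in the uterus, and alpelisib is an inhibitor of phosphatidylinositol 3-kinase alpha. Randomization covered 18 mice, 6 per arm, and the 2 E2 mice were additional; ED has no replicate, and the labels do not say if it was made from 1 mouse.

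Wnt proteins are secreted, lipid-modified signals that bind Frizzled receptors and LRP co-receptors. In the canonical branch this stabilizes beta-catenin, which enters the nucleus and acts with TCF/LEF factors on targets such as Axin2. R-spondins, bound by Lgr receptors, raise the response by removing the ligases Rnf43 and Znrf3, which otherwise clear Frizzled from the cell surface. In the mouse uterus Wnt7a comes from the epithelium, Wnt4 and Wnt5a are needed for normal development of the tract, and beta-catenin signalling is required for gland formation.

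The level of each gene is given as FPKM (fragments per kilobase, scaled to sequencing depth), and differences as log2 fold changes on the log2(FPKM + 1) scale, which understates the change of low genes. Every fold change is followed by its SE from limma-trend over 7 libraries, and p-values were adjusted by Benjamini-Hochberg over the 12314 genes tested, with 0.05 as the threshold. The ED library is assumed in that fit to vary as the other groups do; replicates within a group carry the numbers of different mice. Depth, read from the lowest step of FPKM times length, was about 16.3 to 19.4 M fragments in 6 libraries; the second E2 library showed no clear step (43 genes at 1 fragment and 60 at 2) and is not converted into fragments. Summed FPKM ran between 264322 and 403562, lowest in the second E2 library, which also had the highest ribosomal RNA precursor (Rn45s, 2276 against 189 to 764 in the others).

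All 10 epithelial markers were above 0 in every library, with summed levels of 6560 and 7105 FPKM in Tam+Alp, 4786 and 6392 in Tam, 3272 and 2776 in E2, and 7260 in ED. The 15 stromal markers summed to 188 and 194 FPKM in Tam+Alp, 134 and 127 in Tam, 264 and 259 in E2, and 312 in ED. The 10 endothelial markers summed to 2.37 and 3.17 FPKM in Tam+Alp, 2.88 and 2.54 in Tam, 15.2 and 11.6 in E2, and 22.9 in ED. Among the endothelial markers, 1 and 3 were at 0 in Tam+Alp and 0 in the other libraries. Glandular markers, of which 3 were found, went the other way, with sums of 192 and 210 FPKM in Tam+Alp, 199 and 278 in Tam, 4.13 and 2.35 in E2, and 1.99 in ED; in the tamoxifen libraries most of this was the serine protease gene Prss29, while Cxcl15 was lower there than in E2 and ED. The 9 smooth muscle markers summed to 17.2 and 18.3 FPKM in Tam+Alp, 23.01 and 20.4 in Tam, 10.02 and 7.42 in E2, and 75.9 in ED. The 4 erythroid markers found summed to 237 and 261 FPKM in Tam+Alp, 1238 and 938 in Tam, 73.6 and 109 in E2, and 30.4 in ED. The stromal and endothelial sums were thus lowest in the tamoxifen libraries, as several of the genes below were. Not every stromal marker followed its sum. Vim, Lum, Col1a1, Col1a2 and Col3a1 were lowest with tamoxifen, but Fbln1 and Nr2f2 were lowest in ED (38.4 and 2.93 FPKM). Dcn in Tam+Alp (86.8 and 93.1) lay between the E2 libraries (96.3 and 79.1). The smooth muscle sum was highest in ED and the erythroid sum highest in Tam. The 3 luminal epithelial markers summed to 370 and 395 FPKM in Tam+Alp, 321 and 386 in Tam, 214 and 149 in E2, and 426 in ED. The 10 leukocyte markers summed to 47.95 and 43.5 FPKM in Tam+Alp, 26.2 and 37.1 in Tam, 51.0 and 35.5 in E2, and 26.5 in ED. Among them Csf1r (4.27 and 4.19) and Adgre1 (3.32 and 2.36) were highest in E2, but Cd52 was highest in Tam+Alp and Cd68 in Tam. The part of all these cells in the results was not tested. In such bulk samples, fewer cells of a type and less RNA per cell cannot be told apart.

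Promoter sequences are shown for Wnt11 and Wnt7a, the ligands that fell most with tamoxifen against E2, and for Axin2, the best known target of the pathway. RefSeq promoters (GRCm38.p6) were found for 7 of the 10 genes, 12 in all, and not for Lgr5, Wnt5a and Wnt7b. The 250 bases before the start are given 5′ to 3′ on the gene's strand; capitals mark the TCF/LEF letters CTTTGAT (reverse ATCAAAG) and the GC box GGGCGG (reverse CCGCCC), both searched on both strands.
Wnt11, chr7:98834862-98835111, plus strand: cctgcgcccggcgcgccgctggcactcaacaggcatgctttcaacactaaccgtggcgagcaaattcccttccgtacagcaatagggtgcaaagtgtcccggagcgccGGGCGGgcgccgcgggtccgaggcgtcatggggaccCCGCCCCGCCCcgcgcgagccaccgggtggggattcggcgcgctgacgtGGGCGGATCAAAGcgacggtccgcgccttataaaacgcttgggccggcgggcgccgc
Wnt7a, chr6:91411354-91411603, minus strand: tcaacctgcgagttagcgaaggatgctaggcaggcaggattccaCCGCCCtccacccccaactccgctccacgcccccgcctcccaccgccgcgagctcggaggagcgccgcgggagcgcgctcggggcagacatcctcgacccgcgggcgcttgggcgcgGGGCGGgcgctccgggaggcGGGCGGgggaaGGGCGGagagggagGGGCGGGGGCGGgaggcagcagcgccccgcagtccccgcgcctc
Axin2, chr11:108920099-108920348, plus strand: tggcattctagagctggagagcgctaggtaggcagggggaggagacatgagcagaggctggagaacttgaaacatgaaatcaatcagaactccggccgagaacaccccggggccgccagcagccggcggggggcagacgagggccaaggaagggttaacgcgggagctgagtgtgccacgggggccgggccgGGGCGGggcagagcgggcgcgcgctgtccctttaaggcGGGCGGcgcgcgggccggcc
The Wnt11 promoter holds the only CTTTGAT match among the 12, lying 51 bases before the start and next to a GC box. It holds 4 GC boxes, Wnt7a 6 and Axin2 2. CTTTGAT occurs in 3.73% of the 32851 RefSeq promoters of 300 bases and GGGCGG in 35.7%. Matches to FOXO letters (GTAAACA, 3.65% of promoters) were found in 0 of the 12. A match describes these letters only. The Axin2 stretch lies inside the annotated gene (from 108917828 to 108950783 on chromosome 11), so the bases before the gene's outermost start were not searched.

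With tamoxifen, alone or with alpelisib, Wnt7a, Axin2 and Rnf43 were lower than with E2, and the levels of Wnt11, Lgr5 and Lef1, given as a description, lay below those of both E2 libraries, whereas Wnt7b was not called against E2 and, like Wnt4, was higher than in ED. Of the 10 genes, 7 were lower and 0 higher for Tam against E2, where 36.2% and 12.3% of all genes were called lower and higher. For Tam+Alp against E2 the counts were 8 lower and 0 higher, beside 37.5% and 15.7% of all genes. Both counts include Wnt11, Lgr5 and Lef1. Of the 7 genes that reached the filter in a tamoxifen library, 4 were lower for Tam and 5 for Tam+Alp. The shares over all genes include genes that passed only through E2 or ED, and were not counted without them. They are therefore no matched reference for these counts, here or wherever such genes are left out below. These shares lean on the scaling: with median-of-ratios scaling 21.8% of all genes were lower and 23.9% higher for Tam against E2, and 24.6% lower and 27.3% higher for Tam+Alp against E2, while the 10 genes gave 6 lower and 1 higher, and 7 lower and 0 higher. The median log2 fold change of the 10 genes was -1.06 for Tam and -1.16 for Tam+Alp, (-0.53 and -1.12 without Wnt11, Lgr5 and Lef1), beside -0.26 over all genes in both, and median-of-ratios scaling moved that median over all genes to 0.01. Tam and Tam+Alp share the E2 and ED libraries as their comparators, so these sets of values are not independent.

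**Figure D1:**
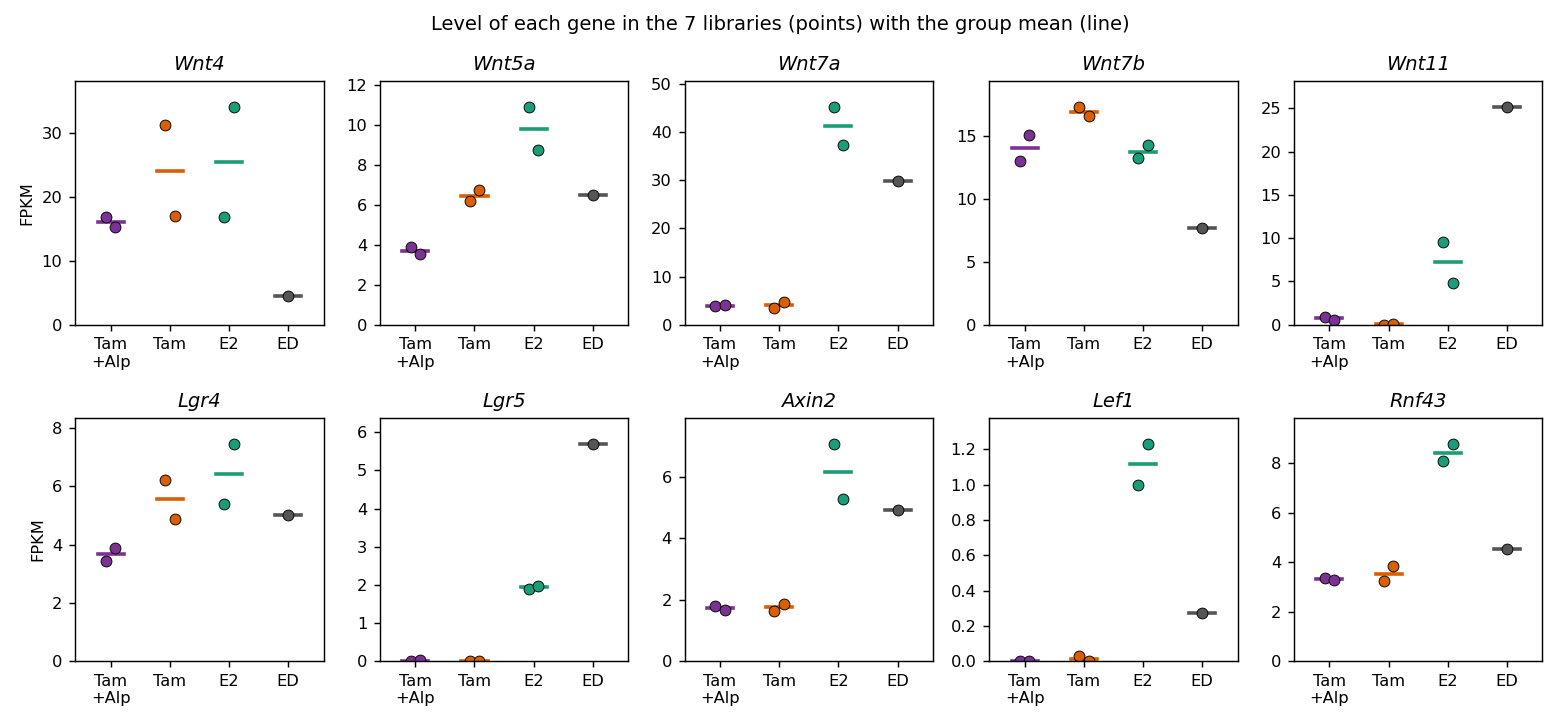
FPKM of the 10 genes, one panel per gene, with a point for each library and the groups ordered Tam+Alp, Tam, E2 and ED along the horizontal axis. Wnt7a, Axin2, Lgr5, Lef1 and Rnf43 are lower in the 4 libraries with tamoxifen than in both E2 libraries, with Wnt7a at 3.48 to 4.77 against 37.3 and 45.2 FPKM.

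Wnt7a, an epithelial ligand that patterns the female tract, was at 3.88 and 4.06 FPKM in Tam+Alp, 3.48 and 4.77 in Tam, 45.2 and 37.3 in E2, and 29.9 in ED. Its levels under tamoxifen overlap with neither E2 nor ED. The mean was 3.97 ± 0.122 FPKM in Tam+Alp, 4.13 ± 0.912 in Tam and 41.3 ± 5.61 in E2 (SD, n = 2 each), 10.4-fold lower in Tam+Alp and 10-fold lower in Tam than in E2 (log2 -3.08 ± 0.17, adjusted p = 0.000114, and -3.05 ± 0.17, adjusted p = 0.000132). Against ED it was lower, at a log2 value of -2.63 ± 0.21 in Tam+Alp (adjusted p = 0.000437) and of -2.60 ± 0.21 in Tam (adjusted p = 0.000389). Tam+Alp and Tam differed by -0.03 (adjusted p = 0.928), and E2 and ED by 0.45 (adjusted p = 0.147).

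Wnt11, a ligand mostly of the beta-catenin-independent branch, was at 0.916 and 0.548 FPKM in Tam+Alp, 0.0198 and 0.112 in Tam, 9.54 and 4.86 in E2, and 25.1 in ED. The groups follow one order, ED highest and Tam lowest, with no overlap. In fragments these levels are about 55 and 31 in Tam+Alp, 1 and 6 in Tam, 570 in the first E2 library and 1681 in ED, so the Tam levels rest on few fragments. As a description, the log2 fold change was -2.19 ± 0.28 for Tam+Alp against E2 and -2.88 ± 0.28 for Tam against E2. Against ED it was -3.92 ± 0.35 in Tam+Alp and -4.62 ± 0.35 in Tam. E2 was below ED, at -1.73 ± 0.35 (adjusted p = 0.012). Tam+Alp was above Tam by 0.69 ± 0.28, which did not pass (adjusted p = 0.166); with a pseudocount of 0.1 it was 2.35 (adjusted p = 0.0268), and it also passed without either E2 library (adjusted p = 0.0492 without the first and 0.0495 without the second).

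Wnt5a, which signals largely without beta-catenin, was at 3.87 and 3.55 FPKM in Tam+Alp, 6.19 and 6.72 in Tam, 10.9 and 8.74 in E2, and 6.50 in ED. It was the only one of the 10 genes called between Tam+Alp and Tam, with both Tam+Alp libraries below both Tam libraries. The log2 fold change there was -0.66 ± 0.15 (adjusted p = 0.0392); 4.81% of all genes were lower and 6.93% higher in that comparison, and 5.92% and 8.66% with median-of-ratios scaling. That call ended when any one of the 4 libraries was left out: the adjusted p was 0.218 without the first Tam+Alp library, 0.275 without the second, 0.119 without the first Tam library and 0.131 without the second. Against E2 the difference was -1.19 ± 0.15 in Tam+Alp (adjusted p = 0.0012) and -0.53 ± 0.15 in Tam (adjusted p = 0.0262). The Tam call ended without either Tam+Alp library (adjusted p = 0.0673 and 0.0669), without either Tam library (0.0986 and 0.0663) and without the first E2 library (0.0716), and with median-of-ratios scaling (log2 -0.21, adjusted p = 0.251). Against ED, Tam+Alp was lower, at a log2 value of -0.67 ± 0.18 (adjusted p = 0.0314; 0.118 without the first Tam+Alp library, 0.157 without the second and 0.0572 with median-of-ratios scaling).

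Wnt4, a ligand of Müllerian duct development and of decidualization, was at 16.8 and 15.2 FPKM in Tam+Alp, 31.2 and 16.9 in Tam, 16.9 and 34.0 in E2, and 4.50 in ED. ED was below all 6 other libraries. The Tam pair and the E2 pair each spanned nearly the whole range of those 6 libraries, 15.2 to 34.0 FPKM. Both Tam+Alp libraries lay below every Tam and E2 library, the nearest by little. Tam+Alp differed by -0.50 ± 0.38 from Tam (adjusted p = 0.446) and by -0.56 ± 0.38 from E2 (adjusted p = 0.259). With scaling to the epithelial markers the latter was -1.49 and was called (adjusted p = 0.0196). Against ED it rose by 1.63 ± 0.47 in Tam+Alp (adjusted p = 0.0395), 2.13 ± 0.47 in Tam (adjusted p = 0.0144) and 2.18 ± 0.47 in E2 (adjusted p = 0.0151). The Tam+Alp call ended without the first Tam+Alp library (log2 1.56) and without the second (1.69). It also ended with no filter on low values (adjusted p = 0.105), a replicate block (0.075), quantile normalization (0.0527) and scaling to the epithelial markers (0.0989). With no filter the Tam and E2 calls against ED ended too (adjusted p = 0.0521 and 0.0531). The E2 call also ended with only E2 and ED in the fit. Tam against E2 gave -0.06 (adjusted p = 0.913).

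Wnt7b, a canonical ligand of many epithelia, was at 12.99 and 15.1 FPKM in Tam+Alp, 17.3 and 16.5 in Tam, 13.2 and 14.3 in E2, and 7.63 in ED. For Tam against E2 the difference was 0.28 ± 0.13 (adjusted p = 0.126), and it depended on the scaling. With median-of-ratios scaling it was 0.62 and was called higher (adjusted p = 0.0131). With scaling to the epithelial markers it was -0.28 (adjusted p = 0.285). As for Wnt4, ED was lowest. It rose against ED by 0.80 ± 0.16 in Tam+Alp (adjusted p = 0.0126), 1.05 ± 0.16 in Tam (adjusted p = 0.004) and 0.77 ± 0.16 in E2 (adjusted p = 0.0145). The first of these ended without the first Tam+Alp library (adjusted p = 0.0552) and without the second (0.0962).

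**Figure D2:**
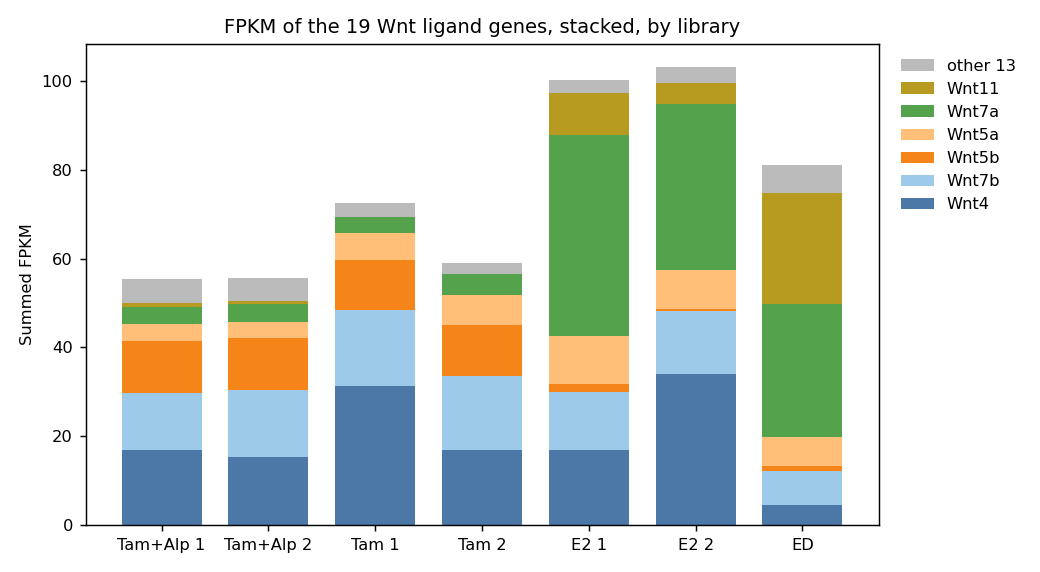
Summed FPKM of the 19 Wnt ligand genes by library, stacked, with 6 ligands in colour and the rest in grey. Wnt7a fills much of the E2 and ED bars and Wnt11 much of the ED bar, whereas Wnt5b takes a larger part of the Tam+Alp and Tam bars.

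The sum of all 19 Wnt ligand genes was 55.4 and 55.6 FPKM in Tam+Alp, 72.4 and 59.0 in Tam, 100.2 and 103.2 in E2, and 81.1 in ED. Wnt7a made up 7.01% and 7.30% of it in Tam+Alp, 4.81% and 8.09% in Tam, 45.1% and 36.2% in E2, and 36.8% in ED. Wnt5b, a close relative of Wnt5a, had a larger share with tamoxifen: 20.9% and 21.4% in Tam+Alp, 15.4% and 19.5% in Tam, 1.68% and 0.401% in E2, and 1.49% in ED. In FPKM, Wnt5b was at 11.6 and 11.9 in Tam+Alp, 11.2 and 11.5 in Tam, 1.68 and 0.414 in E2, and 1.21 in ED. It rose against E2 by 2.71 ± 0.29 in Tam+Alp (adjusted p = 0.000704) and by 2.66 ± 0.29 in Tam (adjusted p = 0.000903).

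Lgr5, an R-spondin receptor that marks stem cells in several epithelia, was at 0 and 0.0248 FPKM in Tam+Alp, 0 and 0.0122 in Tam, 1.90 and 1.98 in E2, and 5.70 in ED. These are about 0 and 2 fragments in Tam+Alp, 0 and 1 in Tam, 155 in the first E2 library and 521 in ED. All 4 tamoxifen libraries lay below the level that 3 fragments give (0.0328 to 0.0390 FPKM over the libraries), so Lgr5 was not detectable there at this depth. The fold changes have no true zero and depend on the pseudocount. As a description, the log2 value against E2 was -1.54 ± 0.12 in Tam+Alp (-4.19 with a pseudocount of 0.1) and -1.55 ± 0.12 in Tam (-4.27). Against ED it was -2.73 ± 0.15 in both. E2 was below ED, at -1.19 ± 0.15 (adjusted p = 0.00255); with scaling to the epithelial markers this was -0.56 and no longer passed (adjusted p = 0.0509).

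Lgr4, the more broadly expressed receptor of this pair, was at 3.44 and 3.90 FPKM in Tam+Alp, 6.23 and 4.89 in Tam, 5.39 and 7.46 in E2, and 5.02 in ED. It passed in one comparison, Tam+Alp against E2, at -0.66 ± 0.19 (adjusted p = 0.0261). That call ended without the first Tam+Alp library (adjusted p = 0.145), without the second (0.0878), without the second E2 library (0.104) and with median-of-ratios scaling (log2 -0.35, adjusted p = 0.206).

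Rnf43, which removes Frizzled receptors from the surface and is itself induced by Wnt, was at 3.39 and 3.27 FPKM in Tam+Alp, 3.23 and 3.85 in Tam, 8.08 and 8.79 in E2, and 4.52 in ED. Both E2 libraries were above all others. It was lower than in E2, at a log2 value of -1.12 ± 0.13 in Tam+Alp (adjusted p = 0.00103) and of -1.06 ± 0.13 in Tam (adjusted p = 0.00156), and E2 was above ED by 0.77 ± 0.16 (adjusted p = 0.0144). Against ED, Tam+Alp differed by -0.35 (adjusted p = 0.144) and Tam by -0.29 (adjusted p = 0.210).

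Axin2, a scaffold of the destruction complex and a feedback target, was at 1.81 and 1.67 FPKM in Tam+Alp, 1.65 and 1.87 in Tam, 7.08 and 5.27 in E2, and 4.93 in ED. The tamoxifen libraries lay below all 3 others. Against E2 it was lower, at a log2 value of -1.38 ± 0.16 in Tam+Alp (adjusted p = 0.00097) and of -1.37 ± 0.16 in Tam (adjusted p = 0.00122). Against ED it was lower, at a log2 value of -1.12 ± 0.20 in Tam+Alp (adjusted p = 0.00751; 0.0524 without the second Tam+Alp library) and of -1.10 ± 0.20 in Tam (adjusted p = 0.00657). Between E2 and ED it differed by 0.26 (adjusted p = 0.334).

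Lef1, a nuclear partner of beta-catenin, was at 0 and 0 FPKM in Tam+Alp, 0.0295 and 0 in Tam, 0.998 and 1.23 in E2, and 0.271 in ED. About 0 and 0 fragments stood behind it in Tam+Alp, 2 and 0 in Tam, 60 in the first E2 library and 18 in ED, so it was not detectable in the tamoxifen libraries (3 fragments give 0.0445 to 0.0529 FPKM). Because it entered the test through an E2 library, its E2 comparisons had a difference built in and are given as a description: -1.08 ± 0.13 for Tam+Alp and -1.06 ± 0.13 for Tam. E2 was above ED by 0.73 ± 0.15, also as a description. Against ED, Tam+Alp differed by -0.35 ± 0.15 (adjusted p = 0.132) and Tam by -0.33 ± 0.15 (adjusted p = 0.144). Neither passed, although 5 of 14 alternatives called the former and 3 of 14 the latter.

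**Figure D3:**
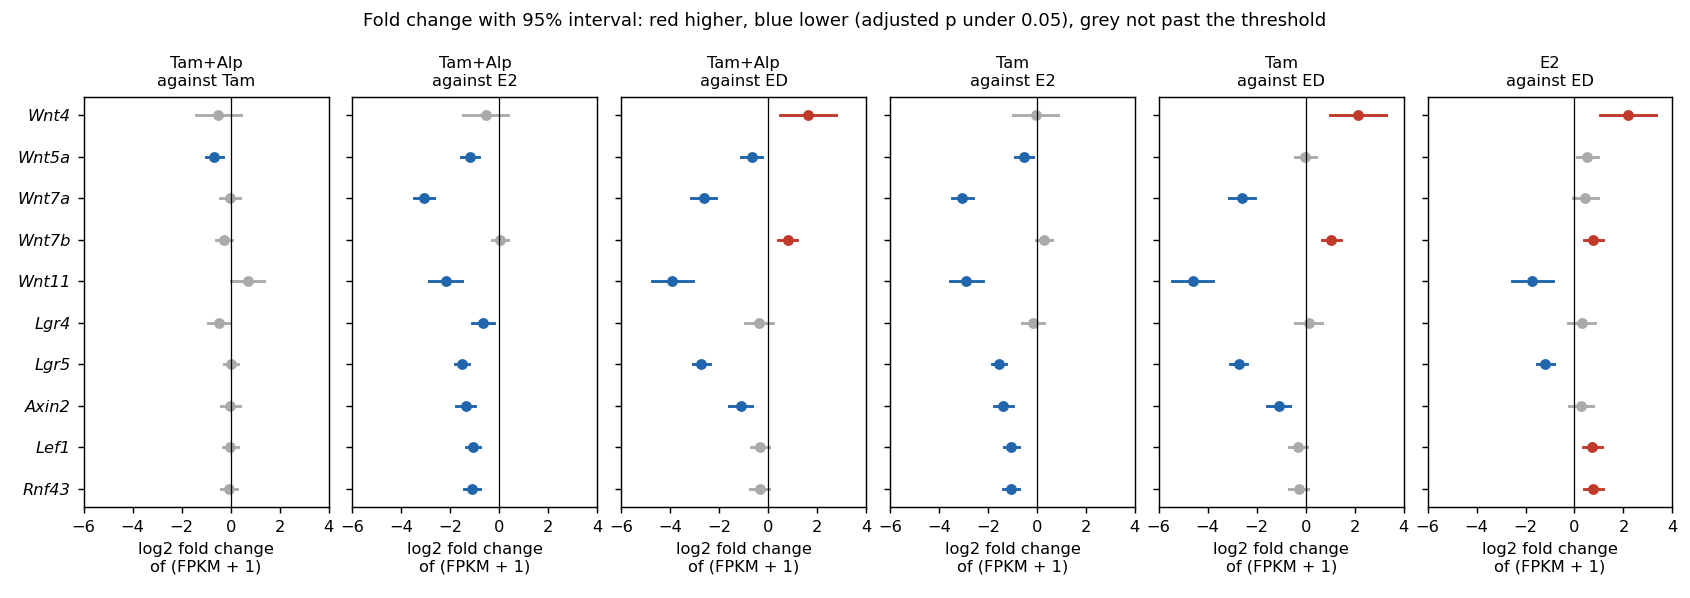
Log2 fold changes of the 10 genes in the 6 comparisons, on the log2(FPKM + 1) scale, with bars for the 95% interval. Wnt7a and Lgr5 stand far below 0 in the 4 comparisons of a tamoxifen group with E2 or ED, and all 10 genes lie between -0.66 and 0.69 for Tam+Alp against Tam.

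Against ED, Tam+Alp raised 2 of the 10 genes and lowered 5, and Tam raised 2 and lowered 4; without Wnt11, Lgr5 and Lef1 the counts were 2 and 3, and 2 and 2. Over all genes 13.1% were higher and 21.8% lower in Tam+Alp, and 14.9% higher and 24.1% lower in Tam (with median-of-ratios scaling 18.1% and 17.2%, and 20.3% and 20.5%). The Tam+Alp count of 7 became 4 without its first library and 3 without its second. E2 raised 4 and lowered 2 against ED, beside 22.7% and 12.8% of all genes (17.1% and 18.3% with median-of-ratios scaling). The 4 include Lef1, whose rise was built in, because it passed the filter only through an E2 library. Of the 7 genes that reached the filter in a tamoxifen library, E2 raised 3 and lowered 0. With only E2 and ED in the fit, which leaves 1 residual degree of freedom, 0 of the 10 were called.

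The rest of the pathway was read from 8 lists holding 96 other Wnt genes, of which 67 were tested. Of these, 15 stayed under an FPKM of 1 in every tamoxifen library and so passed the filter through E2 or ED. Against E2, 7 rose and 34 fell in Tam+Alp, where 15.7% and 37.5% of all genes did, and 4 rose and 40 fell in Tam, where 12.3% and 36.2% did. Without those 15 genes, 7 rose and 25 fell in Tam+Alp and 4 rose and 30 fell in Tam, of 52. The shares over all genes were not counted without such genes. With the 10 genes included, 7 rose and 42 fell in Tam+Alp and 4 rose and 47 fell in Tam, and median-of-ratios scaling gave 12 and 31, and 10 and 34. Against ED, 7 rose and 24 fell in Tam+Alp, 5 rose and 32 fell in Tam, and 13 rose and 10 fell in E2. Without the 15 genes, 7 rose and 15 fell in Tam+Alp, 5 rose and 23 fell in Tam, and 11 rose and 6 fell in E2. All genes gave 13.1% and 21.8%, 14.9% and 24.1%, and 22.7% and 12.8% in the same comparisons. The E2 shares of these genes, 19.4% and 14.9%, are near those over all genes, and their direction depends on the scaling: with the 10 genes included, 17 rose and 12 fell, against 16 and 17 with median-of-ratios scaling and 47 and 4 with scaling to the epithelial markers. Among the 13 Frizzled receptors and co-receptors tested, 11 fell in Tam+Alp and 10 in Tam against E2, and 0 rose. Over all genes 37.5% and 36.2% fell there, and 24.6% and 21.8% with median-of-ratios scaling, under which this list was not counted. Fzd3 and Fzd7 stayed under an FPKM of 1 in every tamoxifen library and passed the filter only through E2. For these genes a difference from E2 was built in. Fzd10 was at 2.98 and 2.59 FPKM in Tam+Alp, 4.84 and 4.02 in Tam, 23.9 and 25.9 in E2, and 10.8 in ED (Tam against E2 -2.26 ± 0.14, adjusted p = 0.000182). The co-receptor Ptk7 likewise fell by 1.81 for Tam against E2 (adjusted p = 0.000283).

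Among the 8 secreted inhibitors tested, 4 fell in Tam+Alp and 5 in Tam against E2, and 0 rose. Over all genes 37.5% and 36.2% fell in these comparisons. Sfrp1, Sfrp2, Sfrp4, Wif1 and Notum stayed under an FPKM of 1 in all 4 tamoxifen libraries and passed the filter only through E2 or ED. A difference was thus built in for much of this list, and its count is a description. Notum, a secreted enzyme that strips the lipid from Wnt proteins, was at 0.292 and 0.252 FPKM in Tam+Alp, 0.453 and 0.654 in Tam, 8.03 and 5.32 in E2, and 5.52 in ED. Znrf3, the partner of Rnf43, was at 0.887 and 0.648 FPKM in Tam+Alp, 1.02 and 0.753 in Tam, 4.04 and 5.08 in E2, and 4.603 in ED. Notum stayed under an FPKM of 1 in all 4 tamoxifen libraries, so its log2 value of -2.29 ± 0.20 for Tam against E2 is a description. Znrf3 fell by 1.56 ± 0.16 there (adjusted p = 0.000803). Tnfrsf19, a receptor induced by Wnt in other tissues, fell by 2.68 ± 0.12 (adjusted p = 7.23e-05). Of the 17 other target genes tested, 4 rose and 7 fell for Tam+Alp against E2, and 2 rose and 11 fell for Tam against E2. The shares over all genes were 15.7% and 37.5%, and 12.3% and 36.2%. Nkd1, Nkd2, Sp5 and Notum stayed under an FPKM of 1 in all 4 tamoxifen libraries and passed the filter only through E2 or ED. Wisp2 was at 0 in E2 and ED and passed only through tamoxifen libraries. A difference was thus built in for part of this list, and its count is a description.

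Tcf7, a TCF factor, went the other way, at 24.6 and 25.2 FPKM in Tam+Alp, 23.6 and 21.9 in Tam, 7.61 and 6.705 in E2, and 5.21 in ED. It rose against E2 by 1.67 in Tam+Alp (adjusted p = 0.000275) and by 1.54 ± 0.13 in Tam (adjusted p = 0.00039). The co-repressor Tle1 fell by 2.17 for Tam against E2 (adjusted p = 0.000347). The gene of beta-catenin itself, Ctnnb1, was at 149 and 154 FPKM in Tam+Alp, 178 and 188 in Tam, 227 and 215 in E2, and 173 in ED, and was called in 1 comparison, Tam+Alp against E2 (-0.54 ± 0.16, adjusted p = 0.0298). Tcf7l2 was called in 0 of 6 (lowest adjusted p = 0.0539).

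**Figure D4:**
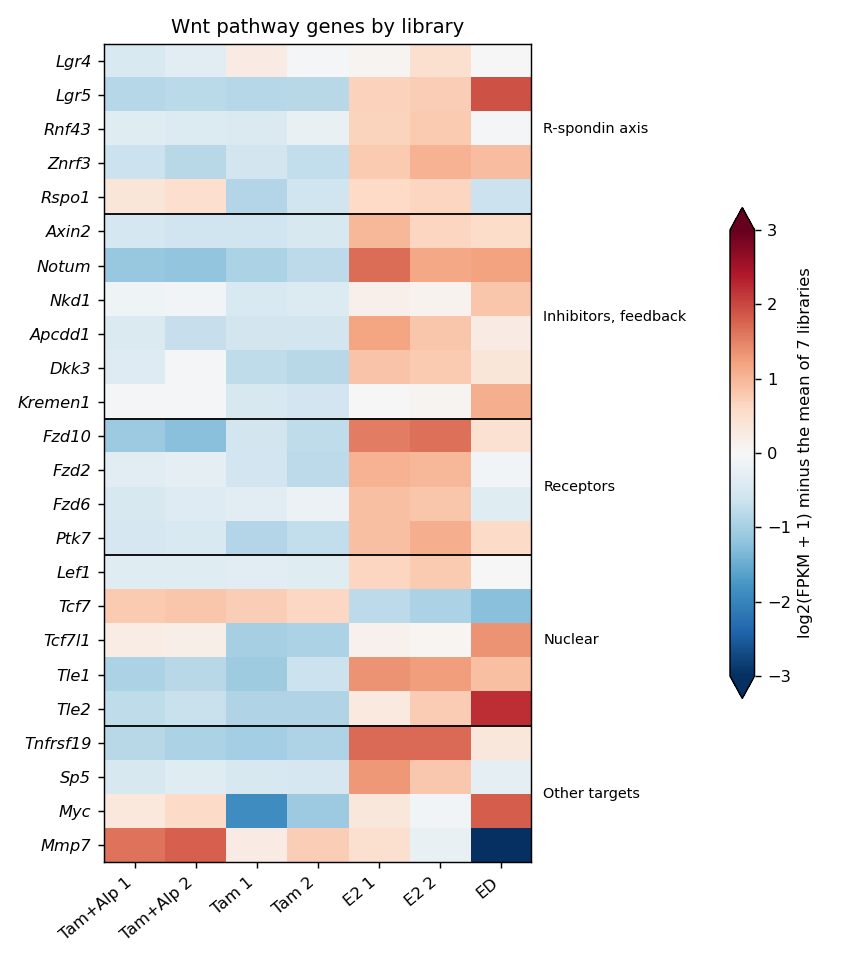
Log2(FPKM + 1) of Wnt pathway genes minus the mean over the 7 libraries, in rows by role and libraries in columns ordered Tam+Alp, Tam, E2 and ED; colours saturate at the ends of the scale. Tcf7 and Mmp7 are high in the tamoxifen columns relative to ED, and Tle2, Notum and Fzd10 are low. Nkd1, Sp5 and Myc were added to the plot after their values were seen.

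With alpelisib added to tamoxifen, 5 of the 67 other Wnt genes rose and 1 fell, which is 7.46% and 1.49%, beside 6.93% and 4.81% of all genes; the share that rose is near that over all genes. Rspo1, which encodes an R-spondin, was at 7.78 and 8.71 FPKM in Tam+Alp and 2.75 and 3.52 in Tam (1.17 ± 0.14, adjusted p = 0.00784), and at 9.40 and 9.66 in E2 and 3.40 in ED. Tcf7l1, a TCF factor that mostly represses, was at 3.59 and 3.48 FPKM in Tam+Alp and 1.001 and 1.069 in Tam (1.16 ± 0.12, adjusted p = 0.0055). The Wnt acyltransferase gene Porcn rose by 0.97 ± 0.21 (adjusted p = 0.0382) and the protease gene Mmp7 by 1.21 ± 0.28 (adjusted p = 0.0429). Myc (1.91 ± 0.28, adjusted p = 0.0121) and Tle3 (-0.61 ± 0.13, adjusted p = 0.0361), named after their values were seen, complete the set. All 6 calls ended without either Tam+Alp library: 0 of the pathway genes were called then, and 20 and 10 of all genes without the first and the second, against 1445 with both. Without the first Tam library 2 pathway genes were called and without the second 4, against 7.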

How the data were processed

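The labels name 7 libraries of total RNA, made with a TruSeq kit, and the submitters' processing notes name CASAVA, Bowtie and Cufflinks without versions; hg19 is the only build named there, although the symbols are mouse ones, so positions printed are those of RefSeq on GRCm38.p6 and not of the table. The deposited values are FPKM per gene, as judged from the values and from Cufflinks among the notes; strandedness and the handling of near-identical genes are not given in the sources used here. Of 24353 rows, 6155 were at 0 throughout; 27 names turned into dates were tested but not named.

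The 12314 genes that reached an FPKM of 1 in any library were fitted with limma-trend on log2(FPKM + 1) (limma 3.58.1, R 4.3.3; Python 3.11.15), with a mean for each of 4 groups, no further scaling, 3 residual degrees of freedom and a prior of 3.27. The 6 comparisons were adjusted by Benjamini-Hochberg, each over all genes tested, at 0.05. The script was tested on simulated data. The genes and lists were chosen with earlier results of these data known. From each list, up to 4 genes of lowest adjusted p with a mean FPKM of at least 1 could be named, plus Ctnnb1 and Tcf7l2; some are given in counts only. Fragments were estimated from the lowest step of FPKM times length over 8335 genes with 1 transcript and the longest annotated transcript, and cover counting error only. Alternatives were median-of-ratios scaling, a pseudocount of 0.1, no filter, a filter in at least 2 libraries, robust empirical Bayes, a replicate block, only the compared groups, and each replicate left out; quantile normalization and scaling to epithelium markers were chosen after seeing the data.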

Additional observations from a re-analysis of the deposited data

How the results depend on the processing

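The calls of Wnt7a between a tamoxifen group and E2 or ED held under all 15 alternatives run. Over the 10 genes, 808 recomputed fold changes kept direction and side of the threshold, 46 lost the call, 19 gained one and 21 changed sign, and no called value changed sign. The 21 were all uncalled as reported above. For Tam+Alp against Tam they came from leaving out a replicate, which gave ranges of -0.22 to 0.15 for Wnt7a, -0.0088 to 0.027 for Lgr5, -0.067 to 0.045 for Axin2, -0.042 to 0.00 for Lef1 and -0.16 to 0.034 for Rnf43. For Tam+Alp against E2, Wnt7b became -0.89 with epithelium scaling (adjusted p = 0.00607), and ranged between -0.072 and 0.13 with a replicate left out. For Tam against E2, Wnt4 became 0.29 with median-of-ratios scaling, and -0.54 to 0.43 with a replicate left out, Wnt7b -0.28 with epithelium scaling, and Lgr4 0.14 with median-of-ratios scaling, 0.14 with quantile normalization and -0.37 to 0.031 with a replicate left out. For Tam against ED, Wnt5a became 0.16 with median-of-ratios scaling, 0.10 with quantile normalization, 0.20 with epithelium scaling and -0.061 to 0.043 with a replicate left out, and Lgr4 ranged between -0.032 and 0.26 with a replicate left out. The causes were not tested.

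Of the 10 genes, 1 was called for Tam+Alp against Tam, 2 with a pseudocount of 0.1, 0 without the filter and 2 with only those groups; of the pathway genes 7, and 3 without the filter; of all genes 1445, and 870 without the filter. Only the compared groups gave 6843 of all genes for Tam+Alp against ED, and 0, 2 and 197 of the 10, the pathway and all genes for E2 against ED, where epithelium scaling gave 9 (8 higher, 1 lower), 51 and 7609. Mouse numbers do not pair the groups (correlations of same-numbered deviations 0.273 for Tam+Alp and Tam, -0.182 for Tam+Alp and E2, -0.403 for Tam and E2); the replicate block gave 0 of the 10, 3 of the pathway and 589 of all genes for Tam+Alp against Tam.

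Leaving out each replicate gave, in the order Tam+Alp against Tam, E2 and ED, Tam against E2 and ED, and E2 against ED, ranges of 0 to 2, 7 to 8, 3 to 8, 6 to 7, 6 to 7 and 6 to 7 of the 10 genes, 0 to 10, 33 to 50, 23 to 43, 41 to 52, 33 to 48 and 25 to 36 pathway genes, and 10 to 1765, 3875 to 6607, 1898 to 5070, 4306 to 6071, 3453 to 5527 and 2803 to 5035 of all genes. ED cannot be left out of its comparisons, and low levels of Lgr5, Lef1 and Wnt11 with tamoxifen limit their fold changes.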

Other observations

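The genes whose log2(FPKM + 1) was most like that of a member over the 7 libraries are given as a description, from 6491 genes of mean FPKM of at least 5; with 4 groups, such values mostly follow the group means. For Lgr5 they were Slc7a5 (Pearson r 0.9985), Kank1, Actn1, Il17rb and Aldh1a1. Slc7a5, an amino acid transporter gene, was at 2.07 and 1.87 FPKM in Tam+Alp, 1.89 and 1.66 in Tam, 9.36 and 9.34 in E2, and 25.7 in ED. For Wnt7a they were Slc39a14 (0.998), Tle1, Tacc2, Khdrbs1 and Atxn10. For Axin2 they were Flywch1 (0.994), Wnt7a, Aldoc, Serpinf1 and Ankrd40. For Wnt5a they were Mbd3 (0.992), Actl6a, Thoc5, Ran and Gpn1. Mbd3, which encodes a subunit of a chromatin remodelling complex, was at 46.1 and 46.6 FPKM in Tam+Alp, 63.0 and 65.0 in Tam, 96.7 and 80.2 in E2, and 62.7 in ED.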
